A study of Homo sapiens with 6 samples.

Results

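Receptor tyrosine kinases are cell-surface receptors for growth factors and for ligands carried by neighbouring cells. The set described here held 10 of their genes, picked by name: EGFR, ERBB2, ERBB3, MET, AXL, IGF1R, INSR, FGFR1, PDGFRB and EPHA2. All 10 had a value in each of 2 deposited tables of FPKM per gene (fragments scaled by transcript length and by the number of mapped fragments), among 17721 genes listed in either table and 14270 listed in both. The study used U2OS, an established human osteosarcoma cell line. Its 6 RNA samples were 2 immunoprecipitates from DNMT1 knockdown cells (shDNMT1), 2 immunoprecipitates from control cells (shNC, genotype WT), 1 input from shDNMT1 cells and 1 input from shNC cells. The immunoprecipitated RNA was pulled down with a mutant of NSun2, an RNA cytosine methyltransferase, and the protocol states that an NSun2 mutant plasmid was put into the knockdown cells and into cells it calls U6. DNMT1 maintains cytosine methylation in DNA. The headers of the tables give neither a sample nor a condition. The tables are therefore called the second and the first table, neither stands for knockdown or control cells, and no comparison of shDNMT1 with shNC or of immunoprecipitate with input was made.

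Binding of a ligand brings receptor tyrosine kinases together in pairs, and the paired kinase domains phosphorylate tyrosines on each other. Adaptor proteins dock on those tyrosines and start the RAS to ERK and the PI3K to AKT cascades, while ubiquitin ligases, phosphatases and Sprouty proteins switch the signal off. In bone and in bone tumours the insulin-like growth factor, platelet-derived growth factor, fibroblast growth factor and hepatocyte growth factor receptors have been studied as drivers of growth and migration.

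The promoters of AXL and EGFR, the 2 receptors that stood highest in the second table relative to the first, and of PDGFRB, the one that stood lowest, are shown because the study concerns cytosine methylation of DNA. Each is the 250 bases before the RefSeq start (GRCh38.p14), 5′ to 3′ on the strand of the gene, with CG dinucleotides, the usual sites of DNA methylation, in capitals.
AXL, chr19:41218973-41219222, plus strand: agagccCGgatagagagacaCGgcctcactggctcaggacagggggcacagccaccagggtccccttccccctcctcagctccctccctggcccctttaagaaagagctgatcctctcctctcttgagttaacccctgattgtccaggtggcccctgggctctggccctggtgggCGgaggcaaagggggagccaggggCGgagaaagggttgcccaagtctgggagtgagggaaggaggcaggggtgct
EGFR, chr7:55018767-55019016, plus strand: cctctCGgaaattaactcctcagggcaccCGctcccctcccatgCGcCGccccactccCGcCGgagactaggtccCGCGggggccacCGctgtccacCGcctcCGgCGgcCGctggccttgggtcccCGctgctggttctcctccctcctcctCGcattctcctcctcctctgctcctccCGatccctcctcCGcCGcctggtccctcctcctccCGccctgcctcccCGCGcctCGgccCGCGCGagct
PDGFRB, chr5:150155846-150156095, minus strand: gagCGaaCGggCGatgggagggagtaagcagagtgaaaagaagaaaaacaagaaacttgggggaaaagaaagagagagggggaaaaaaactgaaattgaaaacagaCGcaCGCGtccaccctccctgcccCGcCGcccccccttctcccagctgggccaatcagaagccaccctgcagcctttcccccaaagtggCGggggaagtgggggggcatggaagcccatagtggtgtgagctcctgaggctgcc
The AXL window held 4 CG dinucleotides, the EGFR window 25 and the PDGFRB window 9, against a median of 11 over 35116 windows of the same length in the RefSeq table. The AXL and EGFR genes, whose ratios between the tables were alike in direction, thus differed in the CG count of this window. Of the 10 genes, 8 matched the table, and their counts ran from 4 for AXL to 48 for IGF1R, with a median of 23.5. AXL and EGFR had 2 windows each in the table, of which 1 was used. The start used lay 16972 bases from the edge of the deposited locus for ERBB2 and 1260 bases for EPHA2. For the others the distance was at most 432 bases. The letters GGGCGG, the core of the GC box, occurred on either strand in 7 of the 8 windows and in 42.6% of all windows, and ERBB2 was the gene without them. The letters TATAAA occurred in 0 of the 8 and in 10.7% of all windows. These counts describe the sequence, and methylation was not analysed here.

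The 10 receptors covered a wide range of levels. In the second table EPHA2 was highest, followed by AXL, IGF1R, EGFR, MET, ERBB2, FGFR1, INSR, ERBB3 and PDGFRB. In the first table the order was EPHA2, ERBB2, IGF1R, AXL, MET, FGFR1, EGFR, INSR, ERBB3 and PDGFRB. EGFR thus stood in place 4 in the second table and place 7 in the first, and ERBB2 in place 6 in the second table and place 2 in the first. With 1 value per gene and table there is no spread to say which neighbours in these orders differ. The highest receptor exceeded the lowest 57.4-fold in the second table and 11.1-fold in the first, as EPHA2, the highest in each, was higher in the second and PDGFRB, the lowest in each, was lower. The same 7 genes lay at 10 FPKM or more in each table. The 10 values summed to 266 FPKM in the second table and 220 FPKM in the first.

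**Figure D1:**
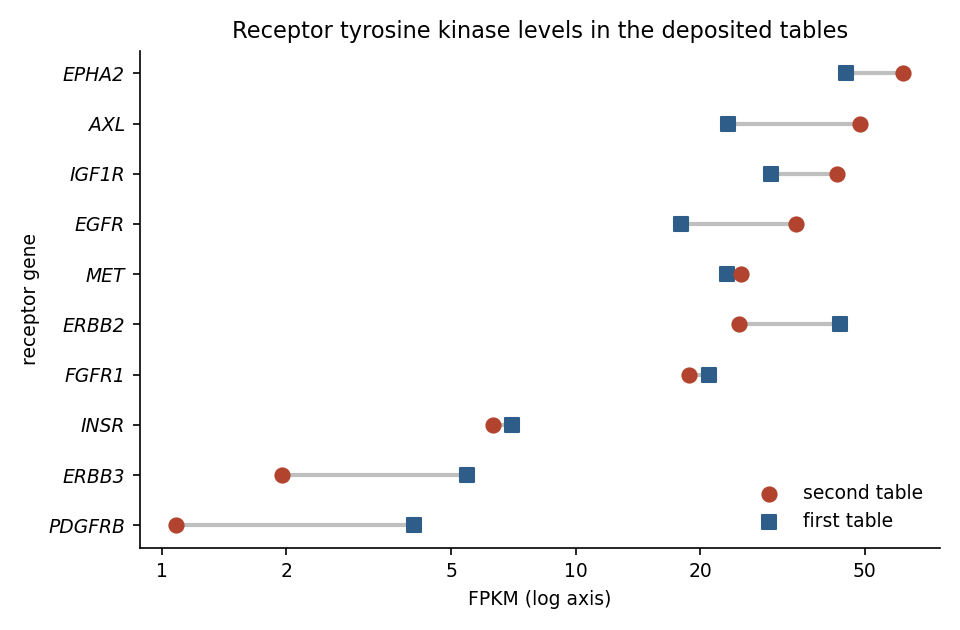
FPKM of each receptor gene (log axis) in the second table (circles) and the first table (squares), ordered by the second table; each point is 1 value with no replicate. AXL, EGFR, IGF1R and EPHA2 lie to the right in the second table, ERBB2, ERBB3 and PDGFRB to the left, and the points of MET, FGFR1 and INSR lie close together.

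Of the 10 receptors, 5 were higher and 5 lower in the second table, where 54.8% of all genes with a ratio were higher. The log2 ratio used throughout is log2((second + 1)/(first + 1)), which understates the difference of low genes. On that scale 1 receptor, AXL, was at least 2-fold higher, where 2.04% of all genes in both tables were, and 2 receptors, ERBB3 and PDGFRB, were at least 2-fold lower, where 1.68% were. In either direction that made 3 of 10 receptors, beside 3.72% of all genes in both tables. Among genes that average at least 1 FPKM, as all 10 receptors did, the background was 2.4% higher, 1.82% lower and 4.22% in either direction. Their median log2 ratio was -0.01, against 0.05 for all genes in both tables. The tables differ for the 10 genes in both directions, and the median near 0 conceals this. There was no test, and bulk RNA cannot tell fewer cells with a transcript from less of it per cell. Whether a table holds input or immunoprecipitated RNA is not stated. Its values need not be the amount of a transcript in the cells, and level and abundant refer to FPKM throughout.

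EGFR, the receptor for EGF, TGF-alpha and amphiregulin, was higher in the second table, while ERBB2 and ERBB3 were lower. EGFR (ENSG00000146648, chr7:55019021-55211628) was listed at 34.2 FPKM in the second table and 18.0 FPKM in the first, a 1.90-fold difference and a log2 ratio of 0.89. The antisense RNA EGFR-AS1 shared its locus and had a value of 4.33 FPKM in the first table, with no row in the second. Without a stated strand, fragments of EGFR and EGFR-AS1 cannot be told apart. ERBB2 (ENSG00000141736, chr17:39671122-39730787), also called HER2, has no known ligand and signals as a partner of the other ERBB receptors. It was listed at 24.9 FPKM in the second table and 43.5 FPKM in the first, a log2 ratio of -0.78. Its locus also held MIEN1, at 29.3 FPKM in the second table and 28.5 FPKM in the first, and PGAP3, at 2.42 FPKM in the second table and 2.94 FPKM in the first. The neighbours that share the merged interval thus differed far less between the tables than ERBB2 did.

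ERBB3 (ENSG00000065361, chr12:56079857-56113907) binds neuregulins and has an impaired kinase, so it depends on partners such as ERBB2. It was listed at 1.95 FPKM in the second table and 5.48 FPKM in the first, a log2 ratio of -1.13, and the first value was 2.81 times the second without the pseudocount. PA2G4, which encodes the ERBB3-binding protein EBP1 and lies at the same locus, was listed at 108 FPKM in the second table and 85.2 FPKM in the first, the opposite direction. RP11-603J24.9, a further identifier there, had 10.6 FPKM in the first table and no row in the second. How fragments were divided among these identifiers enters the ERBB3 values, and its part was not tested. ERBB4, the remaining receptor of the family, was listed at 0.013 FPKM in the second table and 3.63 FPKM in the first, a log2 ratio of -2.19. Within a table the ratio of 2 genes does not depend on how the table was scaled. The level of EGFR was 1.38 times that of ERBB2 in the second table and 0.415 times in the first. It was 17.5 times that of ERBB3 in the second table and 3.29 times in the first. The EGFR to ERBB2 proportion therefore differed 3.32-fold between the tables.

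AXL, a TAM receptor that binds GAS6 and is linked to invasion and drug resistance in tumours, had the largest positive ratio of the 10. AXL (ENSG00000167601, chr19:41219203-41261766) was listed at 48.8 FPKM in the second table and 23.4 FPKM in the first, a 2.08-fold difference and a log2 ratio of 1.03. No other identifier shared its locus. Relative to the median ratio of all genes its log2 ratio became 0.97, and with equal totals over protein-coding genes 0.98, both just under 2-fold. TYRO3, another TAM receptor, was lower in the second table, with 11.9 FPKM against 16.4 FPKM in the first, and MERTK, the remaining one, had no row in either.

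MET (ENSG00000105976, chr7:116672390-116798386), the receptor of hepatocyte growth factor, was nearly level, with 25.1 FPKM in the second table and 23.2 FPKM in the first, a log2 ratio of 0.11. AXL stood at 1.94 times the level of MET in the second table and 1.01 times in the first. MST1R, the closest relative of MET and the receptor of MSP, was listed at 27.7 FPKM in the second table and 29.3 FPKM in the first. EPHA2 (ENSG00000142627, chr1:16124337-16157329), a receptor for membrane-bound ephrin-A ligands, was the highest of the 10, at 62.0 FPKM in the second table and 45.1 FPKM in the first, a log2 ratio of 0.45. Its locus also held RP11-276H7.2, at 1.94 FPKM in the second table and 2.70 FPKM in the first. EPHA2 ranked 1003 among the 16824 genes of the second table (top 5.96%) and 1421 among the 15167 of the first (top 9.37%). EPHB4, a receptor of ephrin-B2, was listed at 42.5 FPKM in the second table and 49.9 FPKM in the first, so the 2 abundant EPH receptors lay on opposite sides of equality.

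IGF1R and INSR are close relatives that exist as disulphide-linked dimers and can pair with each other. IGF1R (ENSG00000140443, chr15:98648971-99135593), the receptor of IGF-1 and IGF-2, was listed at 42.9 FPKM in the second table and 29.7 FPKM in the first, a log2 ratio of 0.52. INSR (ENSG00000171105, chr19:7112255-7294034), the insulin receptor, was listed at 6.31 FPKM in the second table and 7.02 FPKM in the first, a log2 ratio of -0.13. IGF1R thus exceeded INSR in each table, 6.79-fold in the second and 4.23-fold in the first. The locus of IGF1R was shared with SYNM, an intermediate filament gene at 5.23 FPKM in the second table and 5.27 FPKM in the first, and with 2 further identifiers that were listed in the second table alone, at no more than 0.33 FPKM.

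FGFR1 (ENSG00000077782, chr8:38411138-38468834) was nearly level between the tables and PDGFRB was not. FGFR1, a receptor of fibroblast growth factors, was listed at 18.8 FPKM in the second table and 21.0 FPKM in the first, a log2 ratio of -0.15. The pseudogene RPS20P22 at its locus was listed in the second table alone, at 0.11 FPKM. Among its relatives FGFR3 was also nearly level, at 8.56 FPKM in the second table and 8.78 FPKM in the first. FGFR4 was listed at 7.81 FPKM in the second table and 17.2 FPKM in the first, a log2 ratio of -1.05. PDGFRB (ENSG00000113721, chr5:150113837-150155872), the mesenchymal receptor of PDGF-BB, had the largest negative ratio of the 10. It was listed at 1.08 FPKM in the second table and 4.07 FPKM in the first, a log2 ratio of -1.28, and the first value was 3.76 times the second. No other identifier shared its locus. It was also the lowest of the 10 in each table. It stood at rank 11269 of 16824 genes in the second (top 67.0%) and 7556 of 15167 in the first (top 49.8%). PDGFRA, its partner receptor, had no row in either table.

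The ratio of each receptor was set beside those of its chromosomal neighbours, the other genes that start within 1 Mb and average at least 1 FPKM. Around AXL the 30 neighbours had log2 ratios from -0.99 to 0.55 with a median of -0.15, all below the 1.03 of AXL. Around PDGFRB the 16 neighbours ran from -0.30 to 1.07 with a median of 0.01, all above -1.28. These 2 receptors therefore lay outside the range of their surroundings. The ratio of IGF1R exceeded that of all 5 neighbours, and the ratio of EPHA2, 0.45, that of all 26, whose highest was 0.41. Among all genes with a ratio, 15.2% stood above IGF1R and 19.0% above EPHA2, so these 2 were not extreme among all genes. The shares were 1.82% above AXL and 0.547% below PDGFRB, so these 2 were also extreme among all genes. Their place beyond the neighbours is thus not shown to be particular to the region. EGFR was exceeded by 1 of 7 neighbours, and 1 neighbour each lay below ERBB2 (of 35) and ERBB3 (of 44). MET was different. Its 6 neighbours had a median of 0.73, and 5 of them were above the 0.11 of MET, so relative to that median its log2 ratio was -0.62. FGFR1, at -0.15, had 18 neighbours with a median of 0.10, and 3 of them lay below it. INSR, at -0.13, lay at the median of its 32 neighbours, also -0.13. This setting was chosen after the data had been seen, and neighbours are not replicates.

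**Figure D2:**
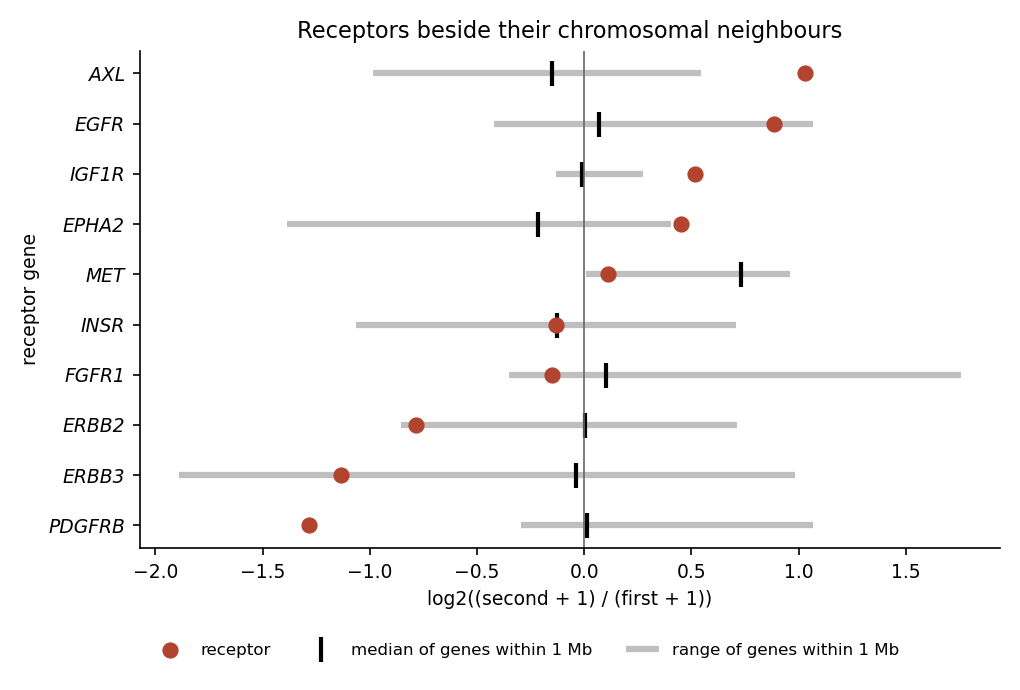
Log2 ratio of second over first table (pseudocount 1 FPKM) for each receptor (circles), with the median (tick) and range (bar) of the other genes starting within 1 Mb that average at least 1 FPKM. AXL, IGF1R and EPHA2 lie above and PDGFRB below the whole range of their neighbours, and MET lies near the low end of its own.

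The rest of the receptor tyrosine kinase family was lower in the second table more often than not. Of 48 other family members, 28 had a row in at least 1 table and 17 in both, and of these 5 stood higher and 12 lower in the second, with a median log2 ratio of -0.26. The share that stood higher among all genes with a ratio was 54.8%. None of the 17 was at least 2-fold higher. Since 2.04% of all genes in both tables were, a count of 0 among 17 is near the background. At least 2-fold lower were ERBB4, ROR2 and FGFR4, 3 of the 17, beside 1.68% of all genes in both tables. ROR2, a receptor of WNT5A, was listed at 1.93 FPKM in the second table and 6.20 FPKM in the first. PTK7, a pseudokinase of planar cell polarity, was among the abundant members, at 14.1 FPKM in the second table and 24.6 FPKM in the first. The 11 members listed in 1 table alone did not exceed 1.02 FPKM. Among the 58 family members together, 13 stood at 10 FPKM or more in the second table and 14 in the first.

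**Figure D3:**
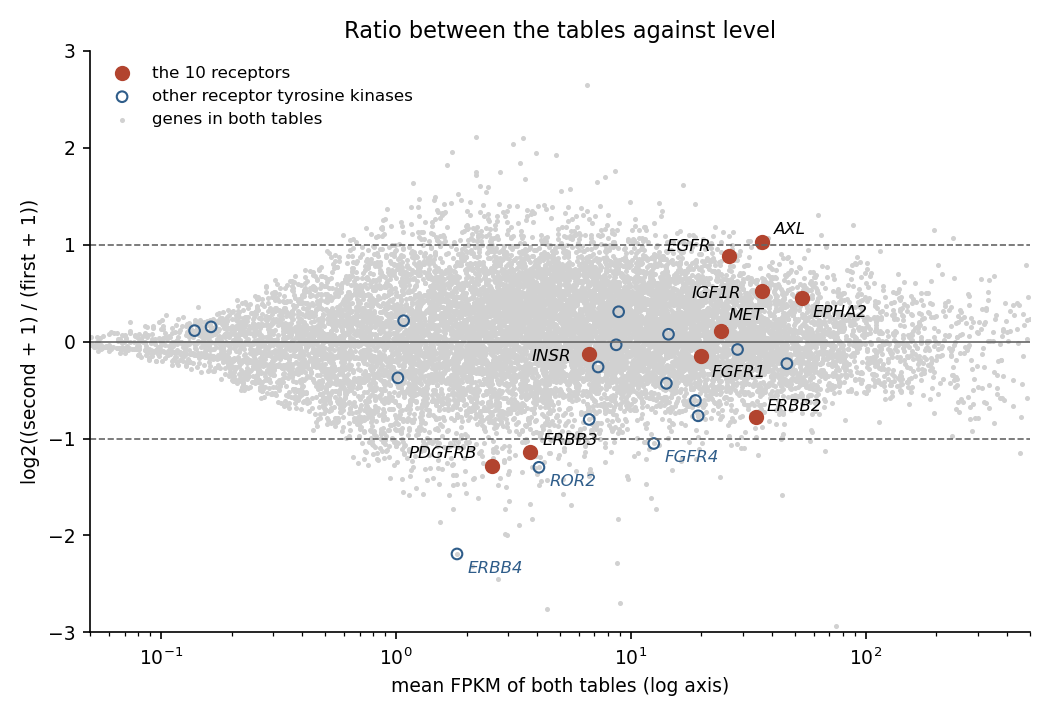
Log2 ratio of second over first table (pseudocount 1 FPKM) against mean FPKM (log axis) for the 10 receptors (filled circles), the other receptor tyrosine kinases (open circles) and genes in both tables (grey, those of very low or very high level not drawn); dashed lines mark 2-fold. AXL lies on the upper line, and ERBB3 and PDGFRB lie below the lower line beside ROR2, FGFR4 and ERBB4.

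The ligands of the 10 receptors were mostly higher in the second table. Of 23 ligand genes, 14 had a row in at least 1 table and 9 in both. Of these 9, 7 stood higher (54.8% of all genes did) and 2 lower in the second, with a median log2 ratio of 0.73. EFNA5, an ephrin-A ligand of EPH receptors, was listed at 8.05 FPKM in the second table and 3.10 FPKM in the first, a log2 ratio of 1.14. FGF2, a ligand of FGFR1, was listed at 8.33 FPKM in the second table and 3.33 FPKM in the first, a log2 ratio of 1.11. It shared its locus with NUDT6, which overlaps it in antisense. These were the 2 ligands of 9 at least 2-fold higher, beside 2.04% of all genes in both tables. NRG1, the neuregulin that binds ERBB3 and ERBB4, had 4.46 FPKM in the second table and 1.75 FPKM in the first, opposite in direction to its receptors. HBEGF, a ligand of EGFR, had 5.94 FPKM in the second table and 2.93 FPKM in the first. GAS6, the ligand of AXL, had 4.83 FPKM in the second table and 2.53 FPKM in the first. GAS6 shared its locus with GAS6-AS1 and TMEM255B. Ligand and receptor were thus both higher in the second table for GAS6 with AXL and for HBEGF with EGFR. They were not for FGF2 with FGFR1, whose log2 ratio was -0.15. TYRO3, a relative of AXL, and ERBB4, a relative of EGFR, were lower, at log2 ratios of -0.43 and -2.19. The shared direction of ligand and receptor thus held for the receptor named and not for its whole family.

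PDGFB, the ligand of PDGFRB, had 8.59 FPKM in the second table and 6.38 FPKM in the first, again opposite to its receptor. The most abundant ligand was EFNA1, an ephrin that binds EPHA2, at 29.7 FPKM in the second table and 28.7 FPKM in the first. EFNA4 had 10.3 FPKM in the second table and 12.3 FPKM in the first. EFNA3, at the same locus, had 2.99 FPKM in the second table and 6.85 FPKM in the first, a log2 ratio of -0.98, just short of 2-fold on this scale. With a pseudocount of 0.1 FPKM, with the median of all genes subtracted, or with equal totals over protein-coding genes, 1 ligand was at least 2-fold lower. AREG, TGFA, EPGN, FGF1 and EFNA2 were listed in the second table alone, AREG at 2.00 FPKM and the rest at 0.97 FPKM or less. The second table held 16824 genes and the first 15167, with 14270 in both. Rows in the second table alone were thus also the more common kind among all genes. No ratio was given to a gene with a row in 1 table alone. HGF, IGF1, IGF2 and EGF were among the 9 with no row in either table.

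Of 24 adaptors that dock on the receptors, 23 were in both tables. In the second, 15 stood higher (54.8% of all genes did) and 8 lower, with a median log2 ratio of 0.14. None was 2-fold apart, and since 3.72% of all genes were, a count of 0 among 23 is near the background. SHC1, which links receptors to GRB2 and was the most abundant, had 89.8 FPKM in the second table and 90.2 FPKM in the first. GRB2, the adaptor that brings SOS to the membrane, had 44.0 FPKM in the second table and 39.7 FPKM in the first. PLCG1, the phospholipase recruited by many of these receptors, had 21.2 FPKM in the second table and 19.2 FPKM in the first.

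The 21 genes of the RAS, ERK, PI3K and AKT cascade were divided: 9 stood higher and 12 lower in the second table, with a median log2 ratio of -0.13. At least 2-fold lower were 2 of the 21, beside 1.68% of all genes in both tables. Of these, PIK3CA, a catalytic subunit of PI3K, had 1.68 FPKM in the second table and 16.4 FPKM in the first. It shared its locus with KCNMB3. MAPK3, the ERK1 kinase, had 18.0 FPKM in the second table and 38.5 FPKM in the first. The abundant members were MAP2K2, a MEK kinase at 130 FPKM in the second table and 174 FPKM in the first, AKT1, at 93.7 FPKM in the second and 118 FPKM in the first, and ARAF, at 62.8 FPKM in the second and 68.8 FPKM in the first.

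Of 30 genes that restrain or degrade the receptors, 29 were in both tables. In the second, 25 stood higher (54.8% of all genes did) and 4 lower, with a median log2 ratio of 0.25. The Sprouty proteins, feedback inhibitors of RAS to ERK signalling, were split. SPRY2 had 8.03 FPKM in the second table and 2.08 FPKM in the first, a log2 ratio of 1.55, and SPRY1 had 1.60 FPKM in the second table and 4.84 FPKM in the first, a log2 ratio of -1.17. PTPN2, a phosphatase that acts on EGFR and INSR, had 4.44 FPKM in the second table and 1.04 FPKM in the first, a log2 ratio of 1.41. These were the 3 members at least 2-fold apart, 10.3% of the 29, beside 3.72% of all genes in both tables. The most abundant were the receptor phosphatase PTPRF, at 67.4 FPKM in the second table and 55.3 FPKM in the first, and HGS, which sorts ubiquitinated receptors for degradation, at 51.3 FPKM in the second table and 50.5 FPKM in the first. SOCS3, an inhibitor of cytokine signalling, had 19.6 FPKM in the second table and 25.4 FPKM in the first.

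**Figure D4:**
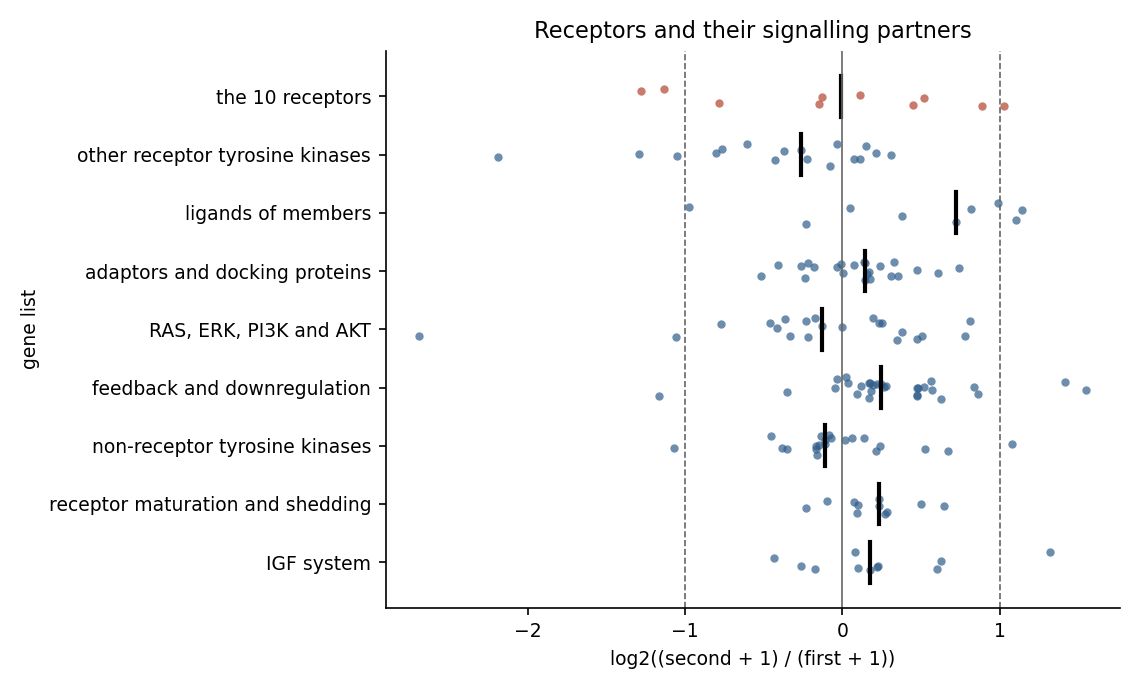
Log2 ratio of second over first table (pseudocount 1 FPKM) for each gene listed in both tables (points, spread vertically for visibility), by gene list, with the list median (bar); dashed lines mark 2-fold. The ligand median, 0.73, lies to the right, the median of the other receptor tyrosine kinases, -0.26, to the left, and the 10 receptors spread widely about a median of -0.01.

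The non-receptor tyrosine kinases often relay receptor signals. Among 21 with a ratio, 8 stood higher in the second table (54.8% of all genes did) and 13 lower, with a median log2 ratio of -0.11. PTK2B, a relative of focal adhesion kinase, had 2.53 FPKM in the second table and 0.67 FPKM in the first. MATK, a kinase related to CSK, had 16.9 FPKM in the second table and 36.7 FPKM in the first. They were the members at least 2-fold apart, 9.52% of the 21, beside 3.72% of all genes in both tables. The most abundant were CSK, at 64.4 FPKM in the second table and 69.6 FPKM in the first, ABL1, at 48.8 FPKM in the second and 55.1 FPKM in the first, and TYK2, at 28.2 FPKM in the second and 27.0 FPKM in the first. Receptors or their ligands mature through chaperones, proprotein convertases and sheddases. Of 11 such genes with a ratio, 9 stood higher in the second table (54.8% of all genes did) and 2 lower. Their median log2 ratio was 0.23, which became 0.084 among genes alone at their locus. None was 2-fold apart, again near the 3.72% of all genes. HSP90AB1, a chaperone on which ERBB2 depends, had 385 FPKM in the second table and 328 FPKM in the first, HSP90AA1 had 104 FPKM in the second and 84.8 FPKM in the first, and the lectin chaperone CALR had 413 FPKM in the second and 387 FPKM in the first.

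In the IGF system 11 genes had a ratio, and 8 of these stood higher and 3 lower in the second table, with a median log2 ratio of 0.18. IGF2BP2, an RNA-binding protein of IGF2 mRNA, had 5.99 FPKM in the second table and 1.79 FPKM in the first, a log2 ratio of 1.32. It alone of the 11 was at least 2-fold higher, beside 2.04% of all genes in both tables. It shared its locus with IGF2BP2-AS1. The most abundant were the binding proteins IGFBP4, at 59.4 FPKM in the second table and 50.6 FPKM in the first, IGFBP6, at 44.8 FPKM in the second and 39.6 FPKM in the first, and IGFBP7, at 40.9 FPKM in the second and 55.6 FPKM in the first.

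DNMT1 was listed at 9.36 FPKM in the second table and 23.3 FPKM in the first, and NSUN2 at 1147 FPKM in the second table and 559 FPKM in the first, where RNA from the plasmid and from the chromosomal gene cannot be told apart. These values were not used to assign a table to a condition. Of 10 genes of osteosarcoma or mesenchymal cells, 9 had a row in the second table and 7 in the first. They summed to 675 FPKM in the second table and 577 FPKM in the first, most of it from VIM and S100A4. COL1A2 was in neither. RUNX2, at 0.81 FPKM, and SPARC, at 0.033 FPKM, were listed in the second table alone. THY1 had 0.032 FPKM in the second table and 0.080 FPKM in the first. The rows counted thus include genes of very low level, and the second table held more genes, 16824 against 15167 in the first. The mesenchymal cadherin CDH2 had 16.2 FPKM in the second table and 7.41 FPKM in the first, and fibronectin, FN1, 11.7 FPKM in the second and 4.84 FPKM in the first, the direction of AXL and EGFR. Others of the list went the opposite way. ALPL, an alkaline phosphatase of osteoblasts, had 38.0 FPKM in the second table and 78.4 FPKM in the first, and the collagen COL1A1 had 0.45 FPKM in the second and 3.04 FPKM in the first. S100A4 had 201 FPKM in the second table and 222 FPKM in the first. VIM, with 407 FPKM in the second and 262 FPKM in the first, went the way of CDH2 and FN1. Of 6 epithelial genes, 4 had a row in the second table and 5 in the first. They summed to 2607 FPKM in the second table and 2901 FPKM in the first, nearly all from KRT8 and KRT18. The epithelial sum thus exceeded the mesenchymal one in each table. The name of the cell line is taken from the study, and these markers do not establish it. CDH1, the epithelial cadherin, had 0.39 FPKM in the second table and 8.42 FPKM in the first, and EPCAM 0.55 FPKM in the second and 2.20 FPKM in the first, the direction of ERBB3 and ERBB4. The part of these markers in the receptor values was not tested. Of the 11 blood, endothelial and neural markers none exceeded 0.82 FPKM.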

How the data were processed

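The 2 deposited tables give FPKM per gene, per the file headers, with a gene identifier, a gene name and a locus. Both FPKM columns were tied to no sample, and whether 1 library or a pool lies behind each is not stated. Per the submitters' processing notes the build was hg38 and the tools were cutadapt 1.12, BWA 0.7.13 and MACS 1.4.2, with no word on which made these values. Because FPKM are relative to a total, a few abundant RNAs move all other values. Locus starts were counted from 0: after adding 1 they equalled the RefSeq start of 1824 genes alone at their locus, against 148 as deposited. A locus is often a merged interval, shared by 47.5% of identifiers and by 6 of the 10 receptors, and its ends are then not those of the gene.

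Genes were joined by identifier, and 1 FPKM was added to each value before taking log2 of second over first. With 1 value per table no test was made, and "at least 2-fold" refers to that scale. The code was tested on simulated data. Absolute depth is unknown. Among 1245 genes under 0.5 FPKM in both tables the log2 ratios peaked in steps of 0.1 at -1.1 (124 genes) and -0.1 (97 genes), so the relative depth could not be settled.

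The receptors and gene lists were chosen with earlier results of these data known. Named list members were the genes at least 2-fold apart, up to 4, and the 3 with the highest mean. The ligands with a row were named too, and some family relatives of the receptors, which were chosen after their values were seen. The design allowed for values per library, which these tables did not give. Python 3.11.15, pandas 2.3.3, numpy 2.4.6 and matplotlib 3.10.9 were used.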

Additional observations from a re-analysis of the deposited data

How the results depend on the processing

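No paired analysis was possible because neither FPKM column carries a replicate number, and leaving out replicates could not be done for the same reason. The log2 ratios of the 10 receptors were recomputed under 6 alternatives, and 59 of 60 values kept their sign. The exception was MET, at -0.62 after subtracting the median of genes within 1 Mb. That setting moved the median of the 10 to -0.13. Many of the 60 values could not have changed sign. A pseudocount of 0.1 FPKM or none keeps every sign by construction, and summing identifiers of 1 gene name left all 10 ratios unchanged. AXL came under 2-fold with the median ratio of all genes subtracted (0.97) and with equal totals over protein-coding genes (0.98), so that 0 receptors were then at least 2-fold higher. Both settings lower every ratio by construction. No setting run took ERBB3 or PDGFRB above a log2 ratio of -1. The filter for genes alone at their locus keeps 4 of the 10 receptors and drops ERBB3, so it could not test that ratio. Filters on level leave a single ratio as it was. For the 8 other lists, 133 values moved by no more than 0.1 in the median or 1.5 times in a count, and 11 moved further. The 133 include the values with identifiers of 1 gene name summed, which left every list as it was. Among genes alone at their locus the median of the other receptor tyrosine kinases became -0.40, that of the RAS, ERK, PI3K and AKT genes -0.00083 and that of the maturation genes 0.084, and the genes at least 2-fold apart became 1 higher ligand, 1 lower cascade gene and 0 higher IGF genes. At a mean of at least 1 FPKM the median of the other receptor tyrosine kinases became -0.37. With a pseudocount of 0.1 FPKM the ligand median became 0.91. Ligands at least 2-fold lower went to 1, against 0, with that pseudocount, with the median subtracted and with equal totals. The cause was not tested. With no replicates and no absolute depth, the error of each value is unknown.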
